A study of Danio rerio with 3 samples.

Results

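The genes described here are 7 of the 32520 in the deposited counts, picked by symbol for their part in the retinoic acid supply of the epicardium: rdh10b, adh8a, dhrs3a, aldh1a2, cyp26b1, raraa and rarga. Each symbol stood on 1 gene of the files. Over all cells 116826 UMIs were counted for adh8a, 55316 for aldh1a2, 36029 for rdh10b, 18139 for dhrs3a, 4339 for cyp26b1, 4218 for rarga and 3115 for raraa.

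The study profiled single cells of zebrafish ventricles of the EK strain carrying tcf21:nucEGFP, aged 6 months, in 3 libraries. One came from uninjured clutchmates (Ctrl) and the others from hearts at 3 and 7 days after partial ventricular amputation (dpa). The reporter, a nuclear EGFP under tcf21 regulatory sequence, was carried by all fish and was the gate of the sort, so the material is live EGFP+ cells of the epicardium, the outer covering of the heart, with some carry-over of other cells. How many fish entered a library is not given in the sources used here, and each condition has 1 library, so a difference between conditions cannot be told apart from one between fish, handling or libraries, and no p-value is given.

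Retinoic acid is made from vitamin A in a pair of oxidation steps. Retinol is first turned into retinaldehyde, mainly by Rdh10, and Dhrs3 carries retinaldehyde back to retinol. Aldh1a2 (Raldh2) then oxidizes retinaldehyde to retinoic acid in a step that is not reversed, Cyp26 enzymes break retinoic acid down, and nuclear receptors of the Rar family bind it and regulate transcription. In the zebrafish heart aldh1a2 is known as a gene of the outer epithelial epicardium and of the endocardium, and retinoic acid made there is needed for regeneration.

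Cells were rebuilt into classes from the counts with all 7 genes, their wider pathway and every marker gene held out of the clustering, and each class was named by markers ("-like"). The 3 libraries held 5098, 3905 and 6624 cells at Ctrl, 3 dpa and 7 dpa, with a median of 4311.5, 9623 and 5435.5 UMIs. Epithelial-like cells numbered 281, 1095 and 1360, mesenchymal-like cells 4355, 2073 and 4863, mural-like cells 333, 113 and 149 and immune-like cells 92, 133 and 175. Activated progenitor cells (aEPC-like) numbered 473 at 3 dpa but only 6 at Ctrl and 33 at 7 dpa, and are described at 3 dpa alone. Of the 10 genes leading this cluster 9 are known from the cell cycle, tpx2, ccna2 and cdk1 among them, and its 3 dpa size was 910 cells with log normalization and 1369 with no batch term. Their median of 27915 UMIs was the deepest of any class, and doublets were not removed. Of the cell barcodes, 21, 16 and 21 also occurred in another library. The 20 epithelial markers summed to between 517 and 598 UMIs per 10000 in epithelial-like cells and to between 99.9 and 165 in mesenchymal-like cells. The 19 aEPC markers summed to 64.0 in aEPC-like cells at 3 dpa. At Ctrl, 3 dpa and 7 dpa they summed to 4.10, 30.5 and 7.04 in epithelial-like cells and to 3.49, 16.2 and 5.80 in mesenchymal-like cells. Immune markers summed to between 147 and 162 in immune-like cells and to at most 2.13 in the epithelial-like, aEPC-like, mesenchymal-like and mural-like cells of any library.

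A level is the number of UMIs (unique molecular identifiers, which count each captured transcript once) of a gene per 10000 UMIs of all genes, summed over the cells of a class. Ranges in brackets are 95% intervals and cover counting error only. Shares of cells are given after each cell was thinned to 1800 UMIs unless stated. Fewer cells with a transcript and less transcript per cell cannot be told apart from a level.

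At the first step, rdh10b, the dehydrogenase that turns retinol into retinaldehyde, was found in both epithelial-like and mesenchymal-like cells, and was higher in mesenchymal-like cells at Ctrl and 7 dpa. In mesenchymal-like cells it stood at 4.09 at Ctrl (4.0 to 4.18), 2.58 at 3 dpa (2.51 to 2.66) and 3.06 at 7 dpa (2.99 to 3.12). In epithelial-like cells it stood at 1.84 at Ctrl (1.70 to 1.99), 2.64 at 3 dpa (2.56 to 2.72) and 2.37 at 7 dpa (2.29 to 2.45). Mesenchymal-like cells were thus 2.22-fold higher at Ctrl, and at 3 dpa the ratio of epithelial-like to mesenchymal-like cells was 1.02 (0.981 to 1.06), which counting error does not separate from equality. The aEPC-like cells at 3 dpa held 3.33 (3.23 to 3.43), above both. Mural-like cells ranged from 3.17 to 4.31, and immune-like cells, which serve as the low reference, from 0.328 to 0.701. The clusters of the mesenchymal-like class differed in rdh10b, as given below. Those marked by ptger2b and, at Ctrl, by rgs5b exceeded epithelial-like cells. Those marked by inhbb and tnfsf12 lay under epithelial-like cells in every library.

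The second candidate for the first step, adh8a, an alcohol dehydrogenase gene whose part in retinol oxidation is less settled, had the widest range over the libraries of the 7 genes in epithelial-like cells. Its level there was 19.5 at Ctrl (19.07 to 20), 3.09 at 3 dpa (3.01 to 3.17) and 25.3 at 7 dpa (25.03 to 25.54). The 3 dpa library was therefore the low one, 6.32-fold under Ctrl (6.10 to 6.56), and 7 dpa was 8.19-fold above it (7.96 to 8.43). On the log2 scale 3 dpa over Ctrl was -2.66, and from -3.40 at resolution 0.2 to -1.44 with log normalization. At resolution 0.2 no aEPC-like cluster formed, and the epithelial-like cluster held 1568 cells at 3 dpa. With each cell thinned, 86.0% of epithelial-like cells at Ctrl (81.4 to 89.9) had an adh8a UMI, 29.6% at 3 dpa (26.9 to 32.5) and 83.6% at 7 dpa (81.5 to 85.5), and without thinning the shares were 93.2%, 53.2% and 92.6% at median depths of 11048, 14535 and 9725 UMIs. Immune-like cells gave a thinned share of 8.64%, 7.21% and 15.0% at median depths of 6688, 5894 and 6211 UMIs. In aEPC-like cells at 3 dpa adh8a was at 0.203 (0.180 to 0.229), found in 1.91% of thinned cells, which is below the immune-like share of that library. The aEPC markers were highest at 3 dpa in epithelial-like cells too (4.10, 30.5 and 7.04). The part of activated cells in the epithelial-like adh8a level was not tested. In mesenchymal-like cells as a whole adh8a read 4.71 at Ctrl (4.61 to 4.80), 4.90 at 3 dpa (4.8 to 5.0) and 17.0 at 7 dpa (16.8 to 17.1). The class value joins clusters that differ: where adh8a was high, in the clusters marked by tnfsf12 and rgs5b, 3 dpa was the low library too (15.2, 6.69 and 30.7 in the former), and the tnfsf12 cluster was 663 of the 4355 mesenchymal-like cells at Ctrl and 812 of the 2073 at 3 dpa. At a resolution of 0.5 the tnfsf12 cluster held 474 cells at Ctrl and 150 at 3 dpa. Its low library was still 3 dpa, with 17.9, 9.88 and 39.7. A nearby paralog, adh8b, was counted at 0.706, 0.995 and 0.542 in epithelial-like cells, and how reads shared by the paralogs were counted was not examined.

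The gene of the return step, dhrs3a, whose product reduces retinaldehyde to retinol, was higher in mesenchymal-like than in epithelial-like cells in all 3 libraries. Its mesenchymal-like level was 1.11 at Ctrl (1.07 to 1.16), 1.99 at 3 dpa (1.92 to 2.05) and 2.68 at 7 dpa (2.62 to 2.75). Its epithelial-like level was 0.384 at Ctrl (0.321 to 0.455), 0.819 at 3 dpa (0.777 to 0.863) and 0.821 at 7 dpa (0.775 to 0.868). Both classes were higher after amputation, 1.79-fold in mesenchymal-like (1.70 to 1.89) and 2.13-fold in epithelial-like cells (1.79 to 2.57) at 3 dpa over Ctrl. The mesenchymal-like value joins clusters that differ, as given below. At the main resolution of 0.3, dhrs3a was not higher at 3 dpa than at Ctrl in the tnfsf12 cluster, which became a larger part of the class. At a resolution of 0.5 dhrs3a was higher there, with 3.44 at Ctrl (3.23 to 3.65) and 3.99 at 3 dpa (3.71 to 4.27). That cluster then held 474 and 150 cells and became a smaller part of the class. In the inhbb and ptger2b clusters dhrs3a was higher at 3 dpa at either resolution. In mesenchymal-like cells 7 dpa was 1.35-fold above 3 dpa (1.30 to 1.41), and the epithelial-like ratio of 1.0 (0.928 to 1.08) spans equality. The aEPC-like level of 1.23 (1.17 to 1.29) lay between the epithelial-like and mesenchymal-like values of the same library. Mural-like cells ranged from 0.328 to 0.587 and immune-like cells from 0.172 to 0.40.

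**Figure D1:**
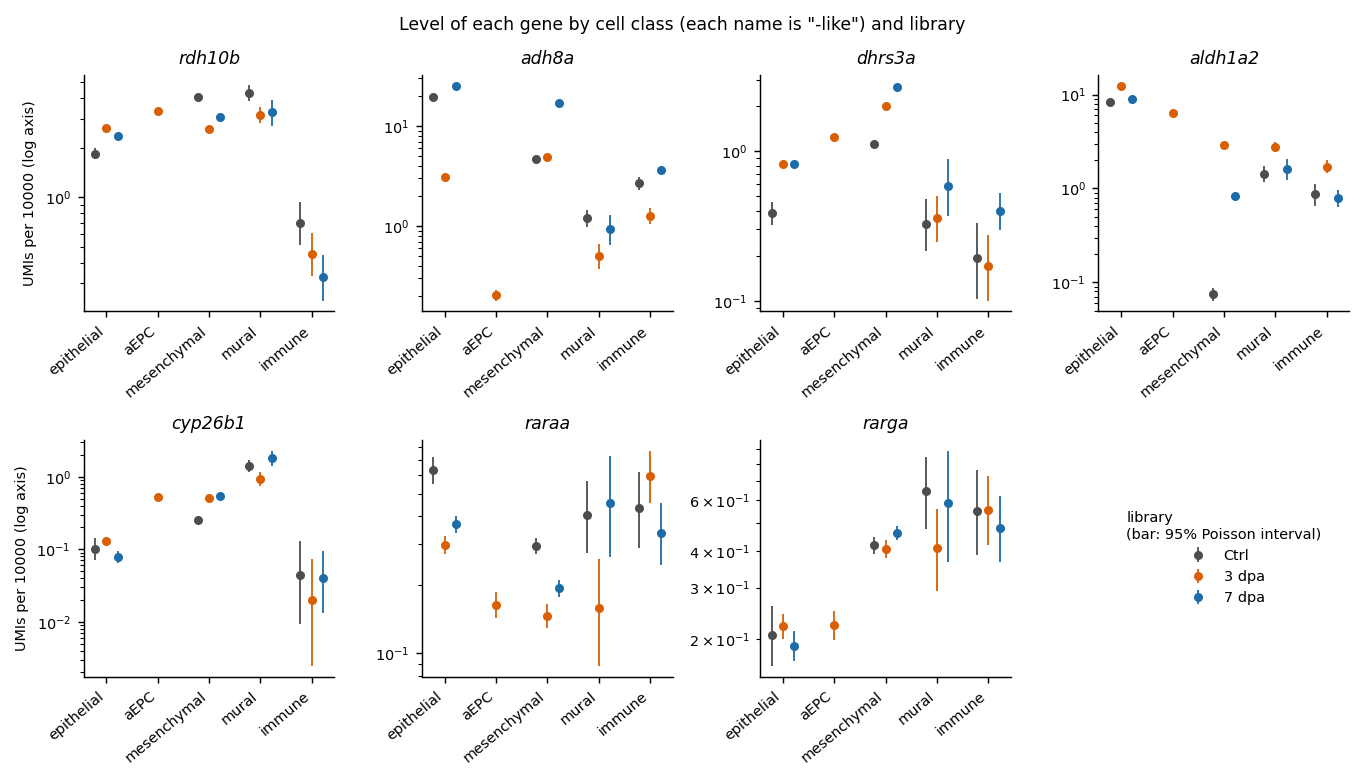
Level of each gene (UMIs per 10000, log axis) in 5 cell classes, with 1 point per library (grey Ctrl, orange 3 dpa, blue 7 dpa) and bars for the 95% Poisson interval; aEPC-like cells are shown at 3 dpa only. The adh8a level of epithelial-like cells is 19.5, 3.09 and 25.3 in the order of the libraries, and the aldh1a2 level of mesenchymal-like cells is 0.0751, 2.90 and 0.829.

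At the second step, aldh1a2, the enzyme that makes retinoic acid, was highest in epithelial-like cells in every library, with 8.31 at Ctrl (8.0 to 8.62), 12.4 at 3 dpa (12.2 to 12.6) and 8.98 at 7 dpa (8.83 to 9.13). The epithelial-like ratio was 1.49 at 3 dpa over Ctrl (1.43 to 1.55) and 1.08 at 7 dpa over Ctrl (1.04 to 1.13). Its UMI was found in 69.2%, 77.4% and 76.1% of thinned epithelial-like cells, so most of these cells carried it before injury and after. The aEPC-like cells held 6.40 at 3 dpa (6.27 to 6.54), 1.94-fold less than epithelial-like cells (1.89 to 1.98) and 2.2-fold more than mesenchymal-like cells (2.13 to 2.28), which was 5.58-fold with no batch term.

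Mesenchymal-like cells had little aldh1a2 at Ctrl and far more at 3 dpa. The levels were 0.0751 at Ctrl (0.0638 to 0.0879), 2.90 at 3 dpa (2.83 to 2.98) and 0.829 at 7 dpa (0.796 to 0.864). Epithelial-like cells were accordingly 111-fold higher at Ctrl (94.0 to 131), 4.27-fold at 3 dpa (4.14 to 4.40) and 10.8-fold at 7 dpa (10.4 to 11.3). The 3 dpa ratio depended on the grouping of cells, and was 12.9-fold with no batch term. With the grouping kept it also depended on the weight given to deep cells. It was 6.76-fold as a mean over cells and 6.47-fold in thinned cells, and the 7 dpa ratio was 18.1-fold and 18.5-fold in these 2. Within the mesenchymal-like class 3 dpa was 38.7-fold above Ctrl (32.9 to 45.6). This size depended on the grouping of cells, and was 10.7-fold when the library was not a term of the normalization. With the grouping kept it was 23.8-fold as a mean over cells, where deep cells have no greater weight than others. All 5 mesenchymal-like clusters were higher at 3 dpa than at Ctrl, by between 8.64-fold and 72.8-fold. The Ctrl levels of these clusters rest on between 4 and 80 aldh1a2 UMIs each.

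Other cells of the sort were set beside these mesenchymal-like values. Immune-like cells, a reference whose own aldh1a2 expression is not known here, held 0.865 at Ctrl (0.657 to 1.12), 1.71 at 3 dpa (1.46 to 1.99) and 0.785 at 7 dpa (0.637 to 0.956). Thinned shares with an aldh1a2 UMI were 1.1%, 20.02% and 6.82% in mesenchymal-like cells and 4.94%, 5.41% and 4.58% in immune-like cells; without thinning they were 2.48%, 35.9% and 15.2% against 10.9%, 12.0% and 10.9%, with median depths of 4310, 6644 and 4784 UMIs in mesenchymal-like and 6688, 5894 and 6211 in immune-like cells. At Ctrl the mesenchymal-like share was under the immune-like one, and so was the level, at 0.0751. Immune-like cells are therefore no common floor for both classes. How much of the mesenchymal-like values is background cannot be told from them. By share, 7 dpa (6.11 to 7.59) is not separated from the immune-like interval (1.86 to 9.20), and 3 dpa (18.3 to 21.9) lies above it (2.01 to 11.4). In the same libraries 100 UMIs of tcf21 went with 5.35, 23.6 and 6.61 UMIs of aldh1a2 in immune-like cells and with 1.56, 22.5 and 5.72 over all cells. These were close at 3 and 7 dpa but not at Ctrl. For 100 UMIs of col1a2, a collagen gene, the values were 13.1, 22.3 and 7.61 in immune-like cells and 4.77, 19.3 and 9.29 over all cells. The source of aldh1a2 UMIs in immune-like cells was not tested.

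The sum of epithelial marker RNA was also higher in mesenchymal-like cells at 3 dpa (165) than at Ctrl (99.9), by a smaller factor than aldh1a2. Over 20 epithelial markers the mesenchymal-like level was a median of 13.9% of the epithelial-like level for Ctrl, 21.0% for 3 dpa and 15.8% for 7 dpa, and aldh1a2 read 0.904%, 23.4% and 9.24%. The markers lowest at Ctrl were cldnc, a claudin, jam2b, a junctional adhesion molecule, ucmaa, sost, a secreted Wnt antagonist, and igfbp5b. They read 0.180%, 0.20%, 0.453%, 2.49% and 2.67% at Ctrl and 1.89%, 3.45%, 7.55%, 1.89% and 16.8% at 3 dpa. All but sost thus had a higher percentage at 3 dpa, though under that of aldh1a2. Each of these also had a lower epithelial-like level at 3 dpa, which raises the percentage. For igfbp5b the epithelial-like level was 11.5 at Ctrl and 1.93 at 3 dpa, and the mesenchymal-like level 0.307 and 0.324. In mesenchymal-like cells ucmaa (0.0194 and 0.0588), cldnc (0.00388 and 0.0205) and jam2b (0.00242 and 0.0222) were higher at 3 dpa. The sost level itself was higher at 3 dpa in both classes, 0.195 and 1.70 in epithelial-like and 0.00485 and 0.0322 in mesenchymal-like cells. At the other end tmem88b and postnb, a periostin gene, read 66.6% and 71.7% at 3 dpa, and 11 of the 20 markers were below aldh1a2 there. These markers are named after their values were seen. The part that epithelial-like RNA or cells joined in 1 droplet have in the mesenchymal-like aldh1a2 level was not tested.

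**Figure D2:**
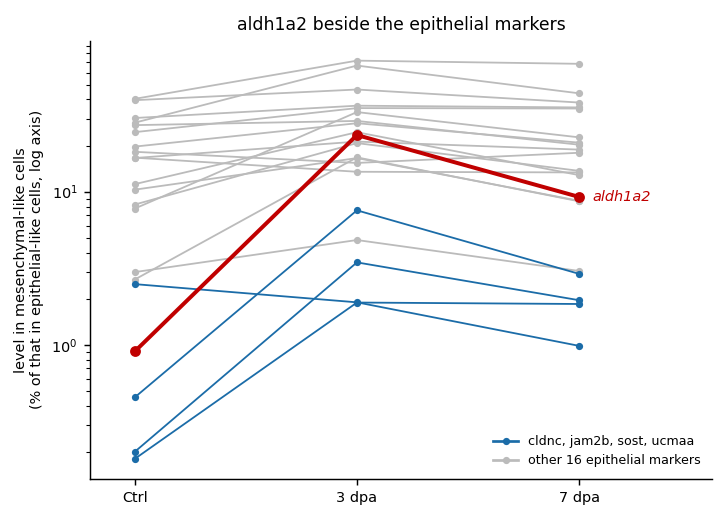
Level in mesenchymal-like cells as a percentage of that in epithelial-like cells (log axis) for aldh1a2 (red) and 20 epithelial markers, by library; 4 markers chosen for low percentages at Ctrl are blue and the other 16 grey. The red line passes through 0.904%, 23.4% and 9.24% for Ctrl, 3 dpa and 7 dpa, and the blue lines reach at most 7.55%, with 3 of the 4 higher at 3 dpa than at Ctrl.

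Mural-like cells, the muscle and pericyte-like cells of vessels, read 1.44 for aldh1a2 at Ctrl, 2.77 at 3 dpa and 1.60 at 7 dpa. Their endothelial markers summed to 32.8, 8.16 and 29.6 UMIs per 10000 in the order of the libraries, so the cluster was not free of endothelial RNA. The part of endothelial RNA in these levels, and in every other mural-like level given here, was not tested. A clustering on 30 principal components set apart 57 endothelial-like cells, of which the 30 at Ctrl held 2.6 (1.98 to 3.36), the 12 at 3 dpa 1.08 (0.558 to 1.89) and the 15 at 7 dpa 1.54 (0.952 to 2.35). At Ctrl the endothelial-like level was above that of mural-like cells (1.19 to 1.73) and below that of epithelial-like cells. The epithelial markers summed to 140, 169 and 133 in endothelial-like cells, against 57.0, 121 and 70.3 in mural-like cells. The part of epithelial-like RNA in the endothelial-like aldh1a2 level was not tested.

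Because the libraries hold different numbers of each class, the same gene was drawn from different cells over time. The epithelial-like class made up 5.51% of the Ctrl cells, 28.0% of those at 3 dpa and 20.5% of those at 7 dpa. This class held 89.7% of the aldh1a2 UMIs in the Ctrl library, 60.02% at 3 dpa and 83.2% at 7 dpa, while aEPC-like cells added 24.2% at 3 dpa. Over all cells the aldh1a2 level was 1.24, 7.06 and 3.55. With each class held at its Ctrl share of UMIs it was 1.24, 4.15 and 1.95, so 3 dpa was still the highest library, by a smaller margin. These shares were 80.3% for mesenchymal-like and 13.4% for epithelial-like cells. The held value therefore leans on the mesenchymal-like level, 0.0751 at Ctrl and 2.90 at 3 dpa, whose background part cannot be told. For rdh10b, mesenchymal-like cells held 88.8% of its UMIs at Ctrl and 32.7% at 3 dpa, where epithelial-like and aEPC-like cells held 32.5% and 32.0%. Mesenchymal-like cells remained the main source of dhrs3a, with 93.0%, 53.0% and 83.9% of its UMIs.

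**Figure D3:**
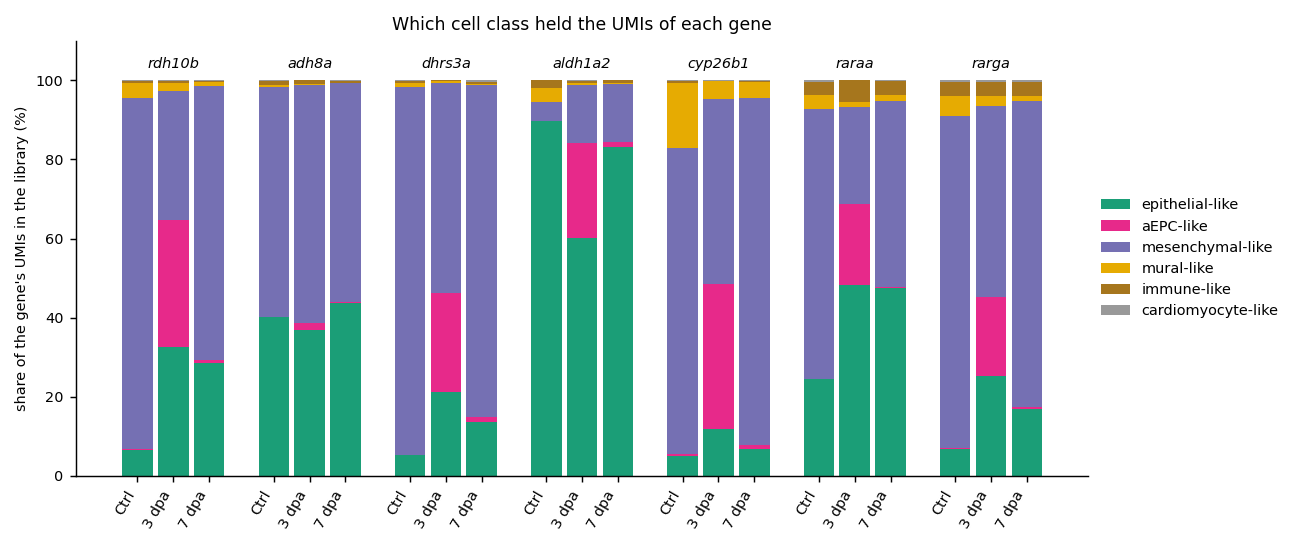
Share of each gene's UMIs (stacked bars, %) that came from each cell class in the Ctrl, 3 dpa and 7 dpa libraries. Epithelial-like cells hold 89.7%, 60.02% and 83.2% of aldh1a2, and mesenchymal-like cells 93.0%, 53.0% and 83.9% of dhrs3a.

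The gene for breakdown, cyp26b1, a cytochrome P450 that hydroxylates retinoic acid, was lowest in the epithelial-like cells among the epicardial classes and highest in mural-like cells. Mural-like levels were 1.41 at Ctrl (1.16 to 1.70), 0.934 at 3 dpa (0.750 to 1.15) and 1.81 at 7 dpa (1.41 to 2.30). The part of endothelial RNA in these was not tested. Mesenchymal-like levels were 0.255 at Ctrl (0.234 to 0.278), 0.506 at 3 dpa (0.473 to 0.540) and 0.538 at 7 dpa (0.511 to 0.566). Epithelial-like levels were 0.102 (0.0709 to 0.141), 0.131 (0.114 to 0.149) and 0.0785 (0.0649 to 0.0941), with a UMI in 1.08%, 1.86% and 0.895% of thinned cells, against 1.23%, 0% and 0.654% of immune-like cells. The epithelial-like shares are not separated from the immune-like ones. The 0 at 3 dpa is of 111 thinned immune-like cells and allows a share up to 3.27%. By level over all libraries epithelial-like cells were higher, at 0.106 from 380 UMIs against 0.0344 from 10 UMIs in immune-like cells. Mesenchymal-like cells exceeded epithelial-like cells 2.51-fold at Ctrl (1.78 to 3.64), 3.87-fold at 3 dpa (3.34 to 4.49) and 6.86-fold at 7 dpa (5.67 to 8.35), and their own level at 3 dpa was 1.98-fold that at Ctrl (1.78 to 2.21). The 3 dpa ratio of epithelial-like to mesenchymal-like cells, -1.95 on the log2 scale, was -0.73 at resolution 0.2 and no longer past 2-fold. At that resolution no aEPC-like cluster formed. The epithelial-like cluster then held 1568 cells at 3 dpa, where the main setting had 1095 epithelial-like and 473 aEPC-like cells. The aEPC-like level of 0.525 was 4.02-fold above epithelial-like cells (3.46 to 4.68) and close to mesenchymal-like cells, at a ratio of 1.04 (0.940 to 1.15).

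Of the receptor genes, raraa was higher in epithelial-like and rarga in mesenchymal-like cells in all 3 libraries. The alpha receptor gene raraa was also lower at 3 dpa than at Ctrl in both classes: in epithelial-like cells it read 0.631 at Ctrl (0.550 to 0.720), 0.298 at 3 dpa (0.273 to 0.325) and 0.367 at 7 dpa (0.337 to 0.40). In mesenchymal-like cells it read 0.294 (0.271 to 0.319), 0.146 (0.129 to 0.165) and 0.193 (0.177 to 0.210). The ratio of 3 dpa to Ctrl was 0.472 in epithelial-like cells (0.402 to 0.556) and 0.496 in mesenchymal-like cells (0.428 to 0.574). In thinned cells the shares with a raraa UMI were 7.89%, 6.43% and 6.11% in epithelial-like cells, with intervals that overlap, and 4.66% (4.03 to 5.35), 3.12% (2.40 to 3.99) and 3.39% (2.88 to 3.95) in mesenchymal-like cells. As a level over thinned cells the epithelial-like ratio of raraa at 3 dpa to Ctrl was -0.25 on the log2 scale, where all UMIs gave -1.08, and no longer past 2-fold. The gamma receptor gene rarga was higher in mesenchymal-like cells, at 0.419, 0.408 and 0.462, than in epithelial-like cells, at 0.206, 0.221 and 0.189. Its mesenchymal-like ratio of 3 dpa to Ctrl was 0.973 (0.881 to 1.07), and its epithelial-like ratio 1.07 (0.829 to 1.40). Immune-like cells, in which receptors may be expressed in their own right, held between 0.336 and 0.597 of raraa and between 0.480 and 0.557 of rarga.

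The members were also counted against all genes. A gene was called when its level differed at least 2-fold among genes with at least 50 UMIs over the pair. At Ctrl, epithelial-like over mesenchymal-like cells, 3 members were higher (aldh1a2, adh8a, raraa), against 12.2% of genes, and 4 were lower (rdh10b, dhrs3a, cyp26b1, rarga), against 17.6%. At 3 dpa 2 were higher (14.6% of genes) and 2 lower (7.91%), and at 7 dpa 1 was higher (8.6%) and 3 were lower (12.2%), with aldh1a2 higher and dhrs3a and cyp26b1 lower in all 3 libraries. From Ctrl to 3 dpa, 1 member was higher and 2 lower in epithelial-like cells (26.8% and 7.25% of genes), and 1 higher and 1 lower in mesenchymal-like cells (15.5% and 8.82%). From Ctrl to 7 dpa, aldh1a2, dhrs3a, adh8a and cyp26b1 were higher in mesenchymal-like cells, against 6.05% of genes, and none was lower, against 2.73%. In epithelial-like cells 1 member, dhrs3a, was higher over that interval (8.53%) and none was lower (4.04%). From 3 to 7 dpa adh8a was higher in both classes (4.89% and 4.26% of genes), and aldh1a2 was lower in mesenchymal-like cells (6.89%), while no member was lower in epithelial-like cells (17.8%). The aEPC-like cells had 1 member higher than epithelial-like cells (cyp26b1, 13.4% of genes) and 1 lower (adh8a, 8.88%). Over mesenchymal-like cells they also had 1 higher (aldh1a2, 29% of genes) and 1 lower (adh8a, 11.5%). These comparisons share libraries and are not independent of each other.

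Within the mesenchymal-like class, rdh10b and dhrs3a lay in different clusters. The cluster led by ptger2b, a prostaglandin E2 receptor gene, held rdh10b at 7.77, 5.31 and 7.59, and the cluster marked by inhbb, an inhibin subunit gene and the second of its leading genes after egr2a, at 0.942, 0.783 and 0.840. That is 8.26-fold at Ctrl (7.57 to 9.02), 6.78-fold at 3 dpa (5.83 to 7.94) and 9.04-fold at 7 dpa (8.33 to 9.81). In a cluster marked by tnfsf12, a TNF family ligand gene, rdh10b was at 0.434, 0.440 and 0.445, the lowest of the 3 larger clusters in each library.

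For dhrs3a the order was the reverse. The tnfsf12 cluster held 3.16 at Ctrl (2.98 to 3.35), 3.12 at 3 dpa (2.99 to 3.26) and 5.39 at 7 dpa (5.23 to 5.55), the inhbb cluster 0.865, 1.59 and 1.54, and the ptger2b cluster 0.331, 0.897 and 1.13. The same tnfsf12 cluster was high for adh8a, at 15.2, 6.69 and 30.7, and for cyp26b1, at 0.574, 0.763 and 0.968. A cluster led by rgs5b, a regulator of G protein signalling, had UMIs of both genes of the retinol and retinaldehyde pair. Its rdh10b was at 3.23, 1.83 and 1.77, its dhrs3a at 2.66, 3.03 and 3.67, and its adh8a at 16.1, 10.95 and 34.7. Few of its cells had a UMI of both rdh10b and dhrs3a, as given below. The gene dhrs3a is itself a leading gene of the tnfsf12 cluster, although it was held out of the clustering. The size of the tnfsf12 cluster depended on the resolution: at 3 dpa it held 812 cells, and 150 at a resolution of 0.5, where dhrs3a read 3.44, 3.99 and 6.24 and rdh10b 0.430, 0.561 and 0.332. The inhbb cluster of that resolution read 0.942, 2.62 and 2.07 for dhrs3a, so the ratio between these clusters at 3 dpa was smaller there. At the main resolution of 0.3, against the inhbb cluster 4 members were higher at Ctrl (3.25% of genes), 1 at 3 dpa (2.32%) and 4 at 7 dpa (3.1%) in the tnfsf12 cluster. Of the 7 genes 1 was lower at Ctrl, rdh10b (13.9% of genes), and none at 3 dpa (4.05%) or 7 dpa (9.91%).

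**Figure D4:**
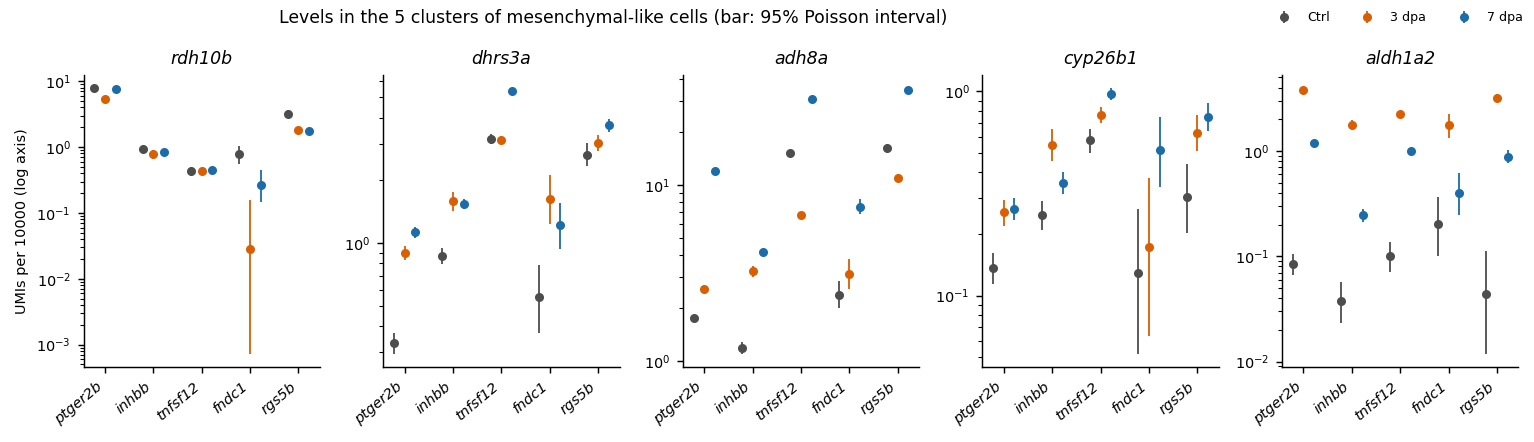
Level of 5 genes (UMIs per 10000, log axis) in the 5 clusters of mesenchymal-like cells, by library (grey Ctrl, orange 3 dpa, blue 7 dpa), with 95% Poisson intervals. At Ctrl rdh10b is 7.77 in the ptger2b cluster and 0.434 in the tnfsf12 cluster, while dhrs3a is 0.331 and 3.16.

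Cells were also counted 1 by 1 for pairs of genes, where a count over the whole class in part restates the difference between clusters. In thinned mesenchymal-like cells a UMI of both rdh10b and dhrs3a occurred in 64 Ctrl cells, 43 of the 3 dpa library and 112 of the 7 dpa library, where the product of the shares of the 2 genes gives 164, 80.6 and 248. Of Ctrl cells with rdh10b, 5.33% had dhrs3a, against 13.7% in the class as a whole. Inside the ptger2b cluster alone the counts were closer, with 39 against 48.3 at Ctrl, 20 against 28.3 at 3 dpa and 65 against 91.2 at 7 dpa. In the tnfsf12 cluster they were 9 against 11.7, 10 against 12.1 and 17 against 22.0, and in the inhbb cluster 14 against 17.4, 9 against 5.04 and 25 against 34.3, so at 3 dpa the inhbb cluster had more than the product. In the rgs5b cluster, which had UMIs of both genes, they were 2 against 9.18, 4 against 7.14 and 4 against 11.6. The pair of dhrs3a and adh8a was found together more often than the product gives, in 296 against 138 cells at Ctrl, 177 against 157 at 3 dpa and 820 against 557 at 7 dpa. Inside the tnfsf12 cluster it was 176 against 159, 105 against 110 and 492 against 440, and in the rgs5b cluster 21 against 22.2 at 3 dpa, so no excess was seen at 3 dpa where both genes were high. Over the class, so was the pair of dhrs3a and cyp26b1, the return step and the breakdown step, with 48 against 18.7, 54 against 25.9 and 133 against 71.7, and in the tnfsf12 cluster 26 against 16.8, 35 against 22.7 and 84 against 66.5. At 3 dpa aldh1a2 and rdh10b, the successive steps of synthesis, met in 113 mesenchymal-like cells against 74.9, and in the ptger2b cluster in 85 against 76.1. In epithelial-like cells they met in 190 against 189.

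**Figure D5:**
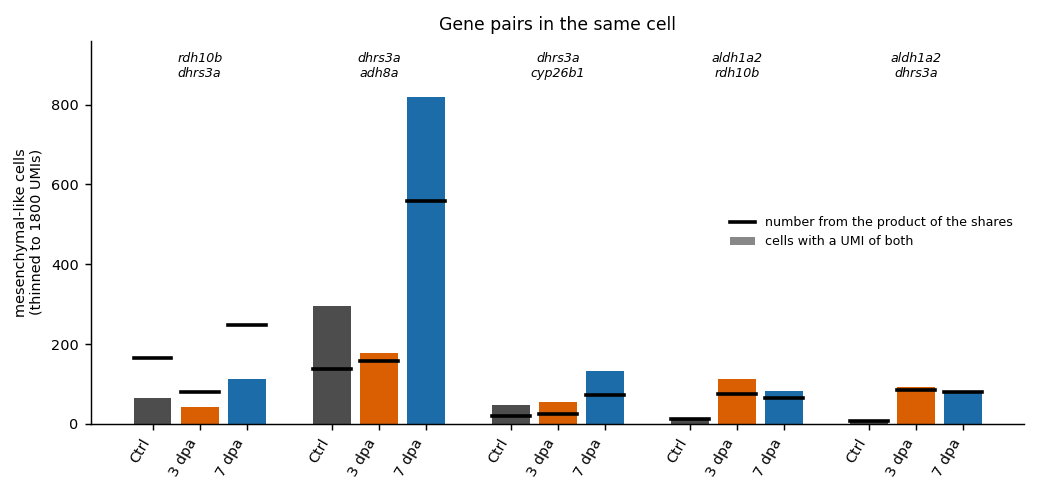
Mesenchymal-like cells (thinned to 1800 UMIs) with a UMI of both genes of a pair (bars, by library) and the number given by the product of the 2 shares (black lines). The rdh10b and dhrs3a bars of 64, 43 and 112 cells lie below their lines, and those of dhrs3a with adh8a, at 296, 177 and 820, above them.

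The genes most alike in level over 25 groups of class, cluster and library, by Pearson's r among 8647 genes with at least 500 UMIs, differed by member. For aldh1a2 they were cavin1b (r = 0.91), a coat protein of caveolae, dpp3, a peptidase, hsbp1a, podxl, a surface sialomucin, and si:ch211-198c19.3. For rdh10b they were pprc1, nfatc1, a transcription factor, irf2bp2b, zgc:77158 and myo10l3, with r between 0.86 and 0.88. For dhrs3a they were cxcl12a, a chemokine and one of the markers, clu, the clusterin gene, znf532, stxbp1a and mfap2, a microfibril protein, with r between 0.83 and 0.87. For cyp26b1 they were eva1ba, tcf15, a transcription factor, pear1, tmem119b and pdlim2, with r between 0.85 and 0.90. The 25 points share 3 libraries and their depth, and the r is a description only. Among the members themselves dhrs3a was most like adh8a (r = 0.56) and cyp26b1 (r = 0.54).

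The wider pathway held 77 other listed genes, of which 72 were in the files, 6 without a UMI, and 13 reached 0.5 UMIs per 10000 in a class. Carriers of retinol were among the highest. The gene rbp4, for the retinol-binding protein that carries retinol between cells, read 183, 48.8 and 142 in mesenchymal-like cells and 150, 16 and 74.4 in epithelial-like cells, so 3 dpa was the low library in both. The cellular binding protein gene rbp2a was at 7.57, 0.346 and 5.02 in mural-like cells, and rbp5 was at 1.42 in both aEPC-like and epithelial-like cells at 3 dpa. The fatty acid binding protein gene fabp11a was highest in mural-like cells, at 81.9, 38.1 and 79.8. Endothelial markers in mural-like cells were also lowest at 3 dpa, at 32.8, 8.16 and 29.6. The part of endothelial RNA in the mural-like rbp2a and fabp11a levels was not tested. The second rdh10 gene, rdh10a, read 1.09, 0.611 and 0.668 in epithelial-like cells, and adh5, an alcohol dehydrogenase used widely by cells, 2.86, 2.10 and 2.96. The other breakdown genes stayed low, with cyp26a1 and cyp26c1 at most 0.027 in epithelial-like, mesenchymal-like and mural-like cells.

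Among binding proteins and targets, crabp2b, a carrier of retinoic acid inside cells, read 0.107, 0.471 and 0.164 in mesenchymal-like cells and 0.526 in aEPC-like cells. The transglutaminase gene tgm2b, whose mammalian counterpart responds to retinoic acid, was at 11.7, 14.2 and 13.9 in epithelial-like cells. In mesenchymal-like cells it was at 0.839, 6.90 and 2.63, with 3 dpa the highest library. Like aldh1a2 it was thus higher in epithelial-like cells in every library. Whether tgm2b answers to retinoic acid in these cells, and the part of epithelial-like RNA in its mesenchymal-like level, was not tested. Immune-like cells read 0.656, 2.47 and 1.47 for it. The retinoid X receptor gene rxrga read 2.27, 0.504 and 1.55 in mural-like cells and 1.09, 1.40 and 1.08 in immune-like cells, so that mural-like cells were higher at Ctrl and 7 dpa and immune-like cells at 3 dpa. The part of endothelial RNA in these mural-like levels was not tested. Of the remaining named genes, adh8b read 1.03 in aEPC-like cells, ncor1, a receptor corepressor, 0.523, 0.561 and 0.722 in mesenchymal-like cells, and meis1b, a homeobox gene, 1.36, 1.48 and 1.12 and nr2f1a, an orphan receptor, 0.820, 0.567 and 0.827 in mural-like cells.

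Of the listed pathway genes tested from Ctrl to 3 dpa in mesenchymal-like cells, 12 of 40 were at least 2-fold higher and 4 lower, where 15.5% of all genes were higher and 8.82% lower, with a median log2 ratio of 0.29 where all genes tested had 0.15. In epithelial-like cells 10 of 33 were higher and 4 lower, against 26.8% and 7.25% of all genes, with a median of 0.23 against 0.38. Among the higher were stra6, the retinol uptake receptor, dhrs3b, crabp2b and fabp11a in both classes, and among the lower rbp4 and crabp1a. For epithelial-like over mesenchymal-like cells the list had 9 higher and 5 lower of 35 at Ctrl, against 12.2% and 17.6% of all genes, with a median of 0.47 against 0.08.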

How the data were processed

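The authors aligned reads with Cell Ranger 3.0.2 (genome GRCz10, per the labels) and deposited, for each gene in each droplet, the UMI counts with no scaling, for 3 libraries of between 26092042 and 52513639 UMIs. Cells had to show more than 316 genes and a mitochondrial share of no more than 5%. Genes seen in at least 5 cells and 0.2% of each library's cells were normalized with SCTransform (sctransform 0.4.2, Seurat 5.3.0, R 4.3.3), with library as batch term. Each condition is 1 library, so this term is also the condition and can remove part of a difference between conditions before cells are grouped. At 3 dpa aEPC-like cells numbered 473 with the term and 1369 without it, and epithelial-like cells 1095 and 725. Members, pathway genes and 133 markers were held out, 20 principal components were clustered at resolution 0.3, and clusters were named from the markers. Scrublet (scanpy 1.11.5) marked 2 of 15627 cells and was taken to have failed, so no doublets were removed. Levels have exact Poisson intervals, ratios exact conditional intervals and shares Clopper-Pearson intervals; thinning to 1800 UMIs left out 483, 207 and 437 cells. With 1 library per condition no test was run. The alternatives were a mitochondrial limit of 10%, at least 1000 UMIs, resolutions 0.2 and 0.5, 30 components, log normalization, no batch term, all genes clustered, highest Scrublet scores removed, means over cells, thinned cells and a minimum of 200 UMIs. Named are the members, pathway genes at 0.5 or more and the 5 most alike genes for 4 members. Members and lists were chosen with earlier results of these data known. No genome was used here, so no sequences are shown.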

Additional observations from a re-analysis of the deposited data

Results flagged for a closer look

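Of the 7 genes, 2 had class levels that moved in opposite directions in epithelial-like and mesenchymal-like cells, with counting intervals on either side of 1. For rdh10b, 3 dpa over Ctrl gave a ratio of 1.433 in epithelial-like cells and 0.6318 in mesenchymal-like cells, 7 dpa over 3 dpa gave 0.8986 and 1.184, and 7 dpa over Ctrl gave 1.287 and 0.7482. For adh8a, 3 dpa over Ctrl gave 0.1581 and 1.041. The latter joins clusters that differ, since 3 dpa was lower than Ctrl in the tnfsf12 cluster (15.2 and 6.69) and the rgs5b cluster (16.1 and 10.95) and higher in the ptger2b cluster (1.74 and 2.57). The difference between the classes was not tested, because each condition has 1 library.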

How the results depend on the processing

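Of the 77 ratios, 63 were recomputed under 11 alternatives and the 14 of aEPC-like cells under 10, since no aEPC-like cluster formed at resolution 0.2. The epithelial-like cluster of that resolution held 1568 cells at 3 dpa, where the main setting had 1095 epithelial-like and 473 aEPC-like cells. Its epithelial-like ratios are thus not of the same set of cells. None of the ratios past 2-fold changed direction. On the log2 scale, aldh1a2 in epithelial-like over mesenchymal-like cells at 3 dpa was 2.09, and became 1.76 at resolution 0.2, 2.32 at resolution 0.5, 2.14 with 30 principal components, 3.69 with no batch term, 2.22 with the highest Scrublet scores removed, 2.76 as a mean over cells and 2.69 in thinned cells. In epithelial-like cells aldh1a2 at 3 dpa over Ctrl was 0.58, and 0.25 at resolution 0.2, 0.81 at resolution 0.5 and 0.82 with no batch term. For rdh10b, epithelial-like over mesenchymal-like cells at 3 dpa was 0.03, and 0.20 at resolution 0.2, -0.15 at resolution 0.5, -0.24 with log normalization, 0.36 with no batch term, -0.10 with the highest Scrublet scores removed and 0.18 in thinned cells. In mesenchymal-like cells rdh10b at 3 dpa over Ctrl was -0.66, and -0.58 with log normalization, -1.22 with no batch term, -0.98 as a mean over cells and -1.07 in thinned cells. There dhrs3a was 0.84, and 0.75 with log normalization, 0.72 with no batch term, 0.71 as a mean over cells and 0.68 in thinned cells. The other 31 of 55 values stayed within counting error. Of 778 values for the remaining ratios 556 did and 222 moved. The cause of these shifts was not tested. No paired analysis was possible because each condition has 1 library, and no replicate could be left out.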
